A study of Mus musculus with 16 samples.

Results

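The expression of 41 genes of cholesterol and fatty acid metabolism, out of 30386 genes in the table, was examined in neural stem and progenitor cells (NSPCs) of the mouse subventricular zone. The genes were chosen by name and grouped by role. They comprise 8 genes of the mevalonate and squalene steps, 9 of the sterol steps that follow, 4 regulators and carriers, 9 of fatty acid synthesis, 7 of fatty acid oxidation, and 4 of lipid efflux, lipoprotein handling and lipid droplets. RNA came from non-adherent cultures of cells that constitutively carried either a mouse *Dbx2* transgene (*Dbx2*-NSPCs, 8 samples) or a *GFP* transgene as control (*GFP*-NSPCs, 8 samples). Both groups derived from the subventricular zone of 3 months old mice and had been through plasmid transfection and puromycin selection. *Dbx2* encodes a homeobox transcription factor, and the question was what its elevated expression does to the transcriptome of young adult NSPCs.

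Cells build cholesterol from acetyl-CoA. The mevalonate steps make isoprenoid units, which are joined to squalene, and squalene is then closed into lanosterol and trimmed to cholesterol. Fatty acids are made from the same precursor, by chain assembly in the cytosol followed by elongation and desaturation, and they are broken down in mitochondria by beta-oxidation. The transcription factors SREBP2 and SREBP1, encoded by *Srebf2* and *Srebf1*, drive the sterol and the fatty acid genes, respectively, and INSIG proteins hold them back when sterols are plentiful. Neural stem cells are known to use both lipid synthesis and fatty acid oxidation, and the balance of the pair is a recognised feature of their quiescent and proliferating states.

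Levels are given in CPM (counts scaled to a common total of reads), the deposited unit, from 3' end sequencing. Sequencing depth ran from 1803929 to 3293286 reads per sample, so that 3 reads correspond to 0.911 to 1.66 CPM. The *Dbx2* transcript stood at 30.7, 64.4 and 171 CPM (lowest, median and highest sample) in *GFP*-NSPCs and at 114, 147 and 232 CPM in *Dbx2*-NSPCs, with a log2 fold change of 1.26 ± 0.317 (SE, n = 8 per group, adjusted p = 0.00978). Endogenous and transgenic transcripts were not separated. The samples also divided by their replicate numbers. Those numbered 1 to 4 and those numbered 5 to 8 deviated from their group means together within a set (mean correlation 0.199 between different numbers). The study sequenced 2 pairs of independently derived lines, but the labels tie no number to a line, so the sets are named by number here and results are also given within each. In numbers 1 to 4, the mean *Dbx2* level was 120.4 ± 35.6 CPM with the *GFP* transgene and 174 ± 41.4 CPM with *Dbx2* (± SD, n = 4), which did not pass the test (adjusted p = 0.0891), whereas in numbers 5 to 8 it was 34.0 ± 3.96 and 136 ± 16.9 CPM.

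Markers of the labelled cell type were present. The 8 NSPC markers summed to 5455 to 6031 CPM in *GFP*-NSPCs and to 4533 to 5598 CPM in *Dbx2*-NSPCs, and *Pax6*, *Egfr* and *Fabp7* were lower in the latter. With the replicate block *Sox2* was lower as well (-0.37, adjusted p = 0.000508, and 0.181 without), and the ependymal *Foxj1* was higher (0.56, adjusted p = 0.0307, and 0.104 without). *Nes* was lower with the number set as covariate (-0.31, adjusted p = 0.0405, and 0.27 without). The 5 astrocyte markers summed to 689 to 2058 and 961 to 1383 CPM, with *Gfap* and *Aldoc* higher and *Slc1a3* lower in *Dbx2*-NSPCs. *Gfap* was at or under 3 reads in 3 *GFP*-NSPC samples. *Slc1a3* passed in 9 of 16 fits that left out 1 sample (highest adjusted p 0.0543), and with the number set as covariate (1.24e-08). The 8 markers of the oligodendrocyte lineage, chiefly *Olig2*, summed to 1336 to 1772 and 1141 to 1441 CPM, with *Sox10*, *Mog* and *Mag* at or under 3 reads in every sample. The sum of the 5 markers of neuroblasts and neurons ran from 12.5 to 37.1 and from 12.1 to 41.2 CPM. It ran from 9.56 to 21.4 and from 14.4 to 34.7 CPM for the 3 ependymal markers, and *Ccdc153* was higher in *Dbx2*-NSPCs. *Ccdc153* was at or under 3 reads in 4 *GFP*-NSPC samples and 1 *Dbx2*-NSPC sample. The 5 of 6 microglial markers in the table did not exceed 1.96 CPM in sum. The 5 endothelial and mural markers summed to at most 2.82 CPM in *GFP*-NSPCs and to 3.58 to 10.9 CPM in *Dbx2*-NSPCs, where *Flt1* was higher. *Flt1* was at or under 3 reads in 5 *GFP*-NSPC samples. The part of these marker differences in the lipid gene results was not tested, and in bulk RNA fewer cells of a type cannot be told apart from less RNA per cell.

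Cholesterol synthesis genes were lower in *Dbx2*-NSPCs (17 of 17 with a fold change below 0, 11 of them past the test), as was the SREBP2 gene. Fatty acid synthesis genes had a fold change below 0 in 9 of 9 cases, 2 of them past the test. Of the 7 oxidation genes, 3 were below 0 and 1 passed. Of the 41 genes, all of which passed the filter on low values, 18 fell and none rose at an adjusted p under 0.05 (limma on log2(CPM + 0.5), Benjamini-Hochberg over 12533 tested genes). Over all tested genes, 7.78% fell and 8.03% rose, 15.8% in all. Without adjustment, 24 of the 41 genes were lower and 1 was higher at p under 0.05 (29.2% of tested genes in either direction), and edgeR called 16 lower and 0 higher, against 7.0% and 8.43% of tested genes (15.4% in all). DESeq2 called 20 lower and 0 higher, against 8.11% and 9.42% (17.5% in all). The median log2 fold change of the 41 genes was -0.39, against -0.022 over all tested genes, and 35 of them had a fold change below 0, as had 52.7% of all tested genes. The 18 genes that fell comprised 11 of 17 sterol synthesis genes, 3 of 4 regulators and carriers, 2 of 9 fatty acid synthesis genes, 1 of 7 oxidation genes and 1 of 4 in the last group. That last gene, *Lpl*, passed the filter on low values only through the *GFP*-NSPC samples, so its call is no support for a difference.

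Adjustment for the number sets left these 18 calls in place and added 6. With the number set as a covariate, 23 of the 41 genes fell and 1 rose, at a background of 12.2% and 12%. Blocking on the replicate number called the same 24 genes (background 21.7%, of which 10.9% lower and 10.8% higher). Samples of the groups did not overlap for 6 genes, each lower in all 8 *Dbx2*-NSPC samples than in any *GFP*-NSPC sample, namely *Lss*, *Srebf2*, *Acly*, *Elovl6*, *Acadl* and *Lpl*. Such a separation downward was found for 1.81% of all tested genes, and none of the 41 was separated upward (1.6% of tested genes). *Lpl* adds no support to these counts, because it passed the filter on low values only through the *GFP*-NSPC samples. In 18 of the 41 genes, *Dbx2*-NSPCs were lower in each of the 8 same-numbered comparisons, as in 7.47% of tested genes. The labels do not say that samples of the same number are pairs.

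**Figure D1:**
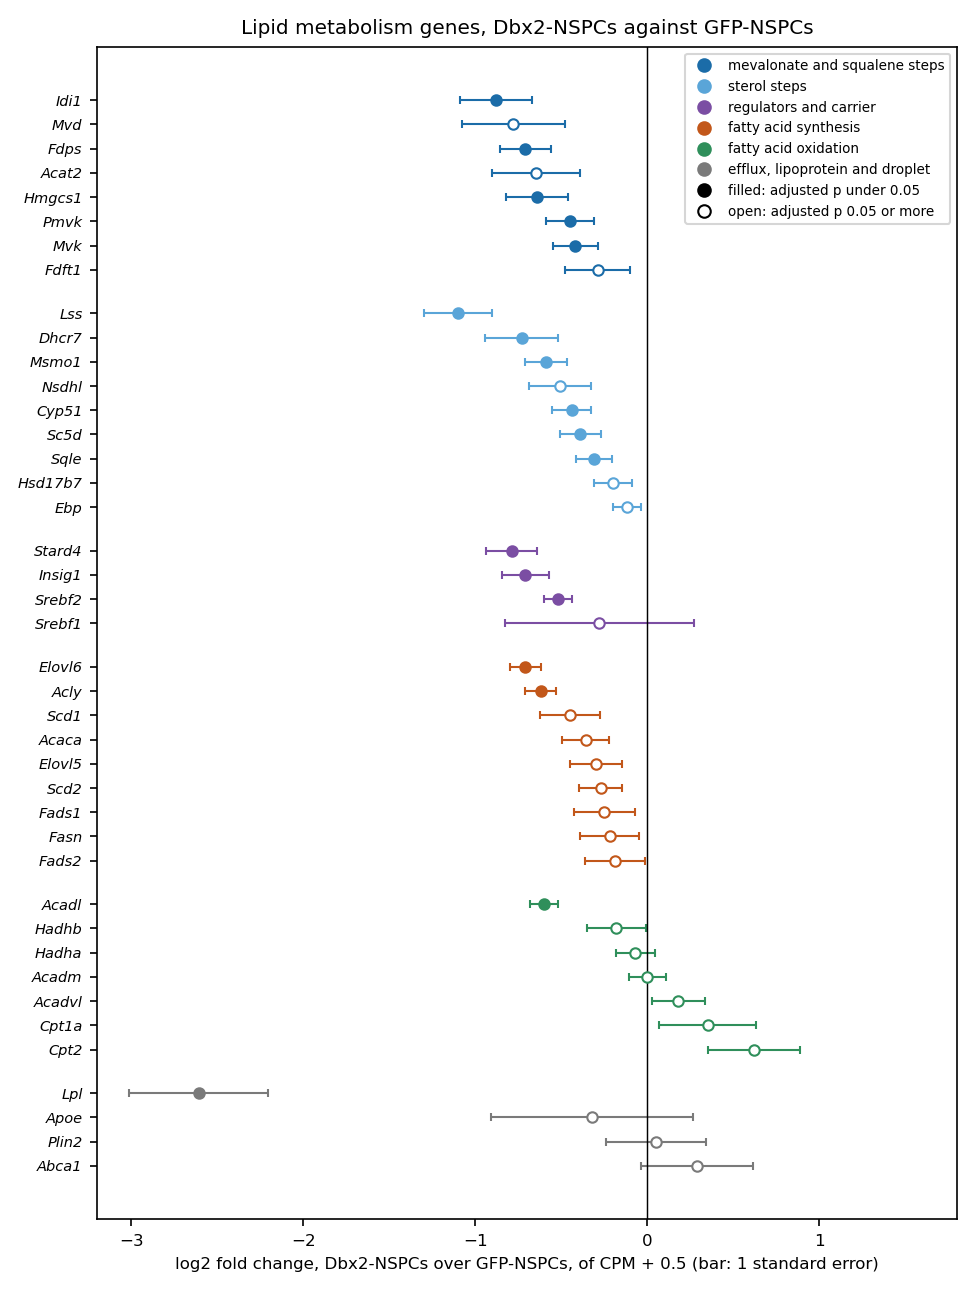
Log2 fold change of the 41 genes in *Dbx2*-NSPCs over *GFP*-NSPCs, on log2(CPM + 0.5), with bars of 1 standard error (n = 8 per group) and colours for the roles. Filled points mark the 18 genes with an adjusted p under 0.05, all left of 0, where the 17 sterol synthesis genes all lie, while fatty acid oxidation genes lie on both sides.

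The promoters of the genes that fell together are shown for 5 of them, because sterol and fatty acid genes are known to share short control motifs near their starts. The sequences are from RefSeq (GRCm38.p6) and cover 250 bases before the start of the transcript, which was given for 33 of the 41 genes. The first was taken because it holds the sterol regulatory element core TCACNCCAC, and the other 4 were picked after their motif counts and values were seen, for genes with clear changes. Capitals mark TCACNCCAC, the E-box CACGTG and the NF-Y box CCAAT, each searched on both strands, so that ATTGG is the NF-Y box read on the other strand.
*Hmgcs1*, chr13:119690101-119690350, plus strand: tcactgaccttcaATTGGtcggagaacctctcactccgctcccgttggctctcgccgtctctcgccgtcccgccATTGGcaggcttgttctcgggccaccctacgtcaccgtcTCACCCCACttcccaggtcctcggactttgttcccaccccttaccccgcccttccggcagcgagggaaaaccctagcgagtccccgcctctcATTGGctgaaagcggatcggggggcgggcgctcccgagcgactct
*Lss*, chr10:76531355-76531604, plus strand: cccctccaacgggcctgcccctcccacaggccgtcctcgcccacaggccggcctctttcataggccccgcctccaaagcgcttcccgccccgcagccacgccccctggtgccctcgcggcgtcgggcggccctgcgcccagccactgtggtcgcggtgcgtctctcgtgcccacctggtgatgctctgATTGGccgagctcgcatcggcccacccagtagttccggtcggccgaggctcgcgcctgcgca
*Insig1*, chr5:28071162-28071411, plus strand: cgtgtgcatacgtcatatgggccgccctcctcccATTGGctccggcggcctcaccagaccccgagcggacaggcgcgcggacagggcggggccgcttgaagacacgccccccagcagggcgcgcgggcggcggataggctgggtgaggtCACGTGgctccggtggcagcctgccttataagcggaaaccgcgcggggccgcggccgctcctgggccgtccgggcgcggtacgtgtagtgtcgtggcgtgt
*Srebf2*, chr15:82147019-82147268, plus strand: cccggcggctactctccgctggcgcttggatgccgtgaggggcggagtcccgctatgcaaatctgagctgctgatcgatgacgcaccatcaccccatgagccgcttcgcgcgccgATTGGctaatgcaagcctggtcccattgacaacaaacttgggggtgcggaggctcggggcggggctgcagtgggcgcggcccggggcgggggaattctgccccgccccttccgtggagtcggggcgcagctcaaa
*Acadl*, chr1:66863310-66863559, minus strand: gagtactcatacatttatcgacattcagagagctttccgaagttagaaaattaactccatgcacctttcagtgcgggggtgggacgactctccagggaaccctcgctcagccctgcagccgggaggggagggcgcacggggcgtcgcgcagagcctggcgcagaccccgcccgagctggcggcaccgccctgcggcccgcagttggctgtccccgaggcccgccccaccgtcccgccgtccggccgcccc

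The NF-Y box was frequent in the sterol gene promoters. It stood in 13 of the 14 sterol synthesis promoters given (92.9%) and in the 3 of the regulators *Srebf1*, *Srebf2* and *Insig1*, against 37.5% of the 27025 genes with a promoter in the table and 41.1% of those tested. It stood in 2 of 6 fatty acid synthesis promoters and in 1 of 7 oxidation promoters. The E-box was found in 6 of the 33 genes (18.2%), namely *Abca1*, *Dhcr7*, *Elovl5*, *Hsd17b7*, *Insig1* and *Sc5d*, and in 6.86% of all genes and 10% of those tested. The sterol regulatory element core, 137 bases before the start of *Hmgcs1*, was found in no other of the 33 and in 1.22% of all genes. *Hsd17b7* and *Ebp*, which did not pass the test, carry the NF-Y box, as do the 9 of 11 sterol synthesis genes that fell and have a promoter in the table, and *Acadl*, which fell, carries none of the 3 motifs in this window. Such matches describe letters and say nothing of binding.

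Of the 8 mevalonate and squalene genes, 5 fell, and the median log2 fold change was -0.65. *Hmgcs1*, which makes HMG-CoA at the entry of the pathway, stood at 910.4, 1424 and 2151 CPM in *GFP*-NSPCs and at 671, 974 and 1232 CPM in *Dbx2*-NSPCs (lowest, median and highest sample here and below). Its log2 fold change was -0.64 ± 0.18 (SE, adjusted p = 0.0194). The groups overlapped, with the *GFP* samples numbered 5 to 8 (1074.8 ± 118 CPM, mean ± SD) near the *Dbx2* samples numbered 1 to 4 (1108 ± 96.4 CPM), and *Dbx2*-NSPCs were lower in all 8 same-numbered comparisons. *Fdps*, farnesyl diphosphate synthase, stood at 128, 215 and 272 CPM and 98.6, 122 and 168 CPM, with -0.71 ± 0.148 (adjusted p = 0.00267). Its 2 groups did not overlap within either number set. *Idi1*, which isomerises the isoprenoid unit, was low, at 4.93, 7.81 and 11.3 CPM and 2.48, 3.91 and 5.21 CPM, and fell by 0.88 ± 0.207 (adjusted p = 0.00636). Summed reads were 175 and 94, a depth-scaled ratio of 2.01 (exact 95% interval 1.55 to 2.61, counting error only).

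The 2 kinases that act on mevalonate and on its phosphate also fell. *Mvk* stood at 68.2, 98.0 and 119 CPM and 53.5, 71.5 and 87.7 CPM (log2 fold change -0.42 ± 0.131, adjusted p = 0.0339), and *Pmvk* at 56.8, 71.8 and 92.4 CPM and 38.7, 53.8 and 80.0 CPM (-0.45 ± 0.137, adjusted p = 0.0289). Both overlapped between groups and both were lower in *Dbx2*-NSPCs in 8 of 8 same-numbered comparisons. With the number set as covariate both passed (adjusted p = 0.000871 and 0.000785), as they did within each set alone. Without covariate, their calls depended on single samples. *Mvk* passed in 8 of 16 fits that left out 1 sample, and was lost (highest adjusted p 0.0705) without *GFP*-NSPC replicate 1, 2, 3, 4 or 7 or *Dbx2*-NSPC replicate 5, 6 or 8. *Pmvk* passed in 10 and was lost (highest 0.0605) without *GFP*-NSPC replicate 2, 3 or 4 or *Dbx2*-NSPC replicate 5, 6 or 8.

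*Mvd* and *Acat2* did not pass over all 16 samples with limma unless the replicate numbers or sets were taken into account. *Acat2* also passed with DESeq2 and without *GFP*-NSPC replicate 8, and *Mvd* without *GFP*-NSPC replicate 8 or *Dbx2*-NSPC replicate 4. *Mvd*, the decarboxylase that ends the mevalonate steps, stood at 51.4, 147 and 266 CPM and 49.6, 82.5 and 172 CPM, with a log2 fold change of -0.78 ± 0.299 (adjusted p = 0.0833, and 0.000199 when blocked on the replicate number). *Acat2*, a cytosolic thiolase, stood at 101, 178 and 351 CPM and 82.3, 118 and 172 CPM (-0.65 ± 0.256, adjusted p = 0.0928, and 0.00208 with the block). In both genes the *GFP*-NSPC samples spread more than 3-fold, and *Dbx2*-NSPCs were lower in 8 of 8 same-numbered comparisons. *Acat2* has a close paralog, *Acat3*, and reads could be split between them. *Fdft1*, squalene synthase, did not pass in limma without covariate (-0.29, adjusted p = 0.316), with the block (0.119) or with the number set (0.0647). *Fdft1* passed narrowly in edgeR with the number set as covariate (adjusted p = 0.049). It overlaps *Ctsb* on the opposite strand over 774 bases at its 3' end, and *Ctsb* was higher in *Dbx2*-NSPCs (0.86, adjusted p = 0.0155). *Cyp51* overlaps *Akap9* in the same way over 166 bases and *Srebf1* overlaps *Rai1* over 109 bases. The strand setting of the counting is not given in the sources used here. The annotated genes that overlap the 3′ ends of *Mvd*, *Fdps* and *Lss* had a mean of 0 CPM. *Acadvl* and *Hadha* overlap *Dvl2* and *Garem2* there, and neither partner passed the test.

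The 9 genes of the sterol steps had a median log2 fold change of -0.44, and 6 fell. *Lss* (ENSMUSG00000033105), which closes squalene epoxide into lanosterol, had the largest change among the 17 sterol synthesis genes. It stood at 48.1, 79.4 and 103 CPM in *GFP*-NSPCs and at 22.9, 40.4 and 43.4 CPM in *Dbx2*-NSPCs. No sample of one group reached the other, and the log2 fold change was -1.10 ± 0.199 (adjusted p = 0.00075). *Msmo1*, a C4-methylsterol oxidase, stood at 258, 347 and 449 CPM and 167, 244 and 266 CPM, with -0.59 ± 0.123 (adjusted p = 0.00254). Its groups overlapped slightly over all samples and not within either number set. *Dhcr7*, the reductase that converts 7-dehydrocholesterol to cholesterol, stood at 81.5, 129.5 and 211 CPM and 52.2, 73.4 and 121 CPM, with -0.73 ± 0.212 (adjusted p = 0.0231). It too did not overlap within either set, and was lower in 8 of 8 same-numbered comparisons.

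*Cyp51*, lanosterol demethylase, stood at 380.1, 549.8 and 683 CPM and 322, 405 and 502 CPM and fell by 0.44 ± 0.113 (adjusted p = 0.011). *Sc5d*, a sterol desaturase, stood at 62.1, 95.5 and 116 CPM and 59.6, 67.1 and 86.7 CPM (-0.39 ± 0.119, adjusted p = 0.0317). *Sqle*, squalene epoxidase, stood at 164, 221 and 269.6 CPM and 142, 178 and 192 CPM (-0.31 ± 0.104, adjusted p = 0.0474). *Cyp51* held in all 16 fits that left out 1 sample, whereas *Sc5d* passed in 7 and was lost (highest adjusted p 0.0666) without any of *GFP*-NSPC replicates 1 to 4 or *Dbx2*-NSPC replicate 2, 4, 5, 6 or 8. *Sqle* passed in 3, those without *GFP*-NSPC replicate 5 or 8 or *Dbx2*-NSPC replicate 2 (highest adjusted p 0.0974 in the other 13). With the number set as covariate, *Sc5d* and *Sqle* passed (adjusted p = 0.00753 and 0.00842). In numbers 5 to 8 alone neither did (0.281 and 0.359). *Nsdhl*, which acts on C4-demethylation, stood at 63.7, 98.7 and 153 CPM and 52.4, 73.7 and 85.7 CPM. It did not pass in limma without covariate (-0.51 ± 0.18, adjusted p = 0.0593) or in edgeR (0.0529). It passed when blocked on the replicate number (0.00435), with the number set as covariate (0.000724) and with DESeq2 (0.031). It also passed when *GFP*-NSPC replicate 5, 7 or 8 was left out. *Hsd17b7* and *Ebp* did not pass with or without the block. Their log2 fold changes were -0.20 (95% interval -0.44 to 0.03) and -0.12 (-0.29 to 0.05), so these intervals leave room for a fall of up to 0.44 and 0.29, respectively.

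Among the regulators and carriers, *Srebf2*, *Insig1* and *Stard4* fell and *Srebf1* did not pass. *Srebf2* (ENSMUSG00000022463) stood at 153, 184 and 209.9 CPM in *GFP*-NSPCs and at 106, 129 and 146 CPM in *Dbx2*-NSPCs. Every *Dbx2* sample was below every *GFP* sample, with a log2 fold change of -0.52 ± 0.0803 (adjusted p = 0.000161). *Insig1*, an endoplasmic reticulum protein that retains SREBPs and is itself an SREBP target, stood at 108, 154 and 213 CPM and 76.7, 91.2 and 116 CPM, with -0.71 ± 0.135 (adjusted p = 0.00115). Its groups overlapped by a narrow margin, and *Dbx2*-NSPCs were lower in 8 of 8 same-numbered comparisons. *Stard4*, a cytosolic carrier of cholesterol, stood at 73.7, 95.1 and 137 CPM and 46.8, 57.0 and 82.2 CPM, with -0.79 ± 0.147 (adjusted p = 0.000913). It did not overlap within either set. *Srebf1* was low and variable, at 6.65, 9.88 and 13.1 CPM and 0, 10.7 and 22.6 CPM, with replicate 4 of *Dbx2*-NSPCs at 0 (-0.28 ± 0.548, adjusted p = 0.777). Its direction turned with the method, at 0.24 in edgeR and in DESeq2, and its group means were 9.44 CPM (control) and 11.1 CPM (*Dbx2*). Without replicate 4 of *Dbx2*-NSPCs the log2 fold change was 0.29. It rose in numbers 5 to 8 alone (0.82, adjusted p = 0.0288) and not in numbers 1 to 4 (-1.39, adjusted p = 0.251), and the difference of these folds did not pass its test (adjusted p = 0.0871).

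Fatty acid synthesis genes all had fold changes below 0, with a median of -0.30 on the log2 scale, and 2 of 9 passed the test. *Elovl6* (ENSMUSG00000041220), which elongates palmitate to stearate, stood at 121, 132 and 164 CPM in *GFP*-NSPCs and at 64.6, 84.6 and 94.1 CPM in *Dbx2*-NSPCs. The groups were well apart, with a log2 fold change of -0.71 ± 0.0888 and the smallest adjusted p of the 41 genes, 1.74e-05. *Acly* (ENSMUSG00000020917), which supplies cytosolic acetyl-CoA to both sterol and fatty acid synthesis, stood at 143, 191 and 249 CPM and 113, 128 and 136 CPM, with -0.62 ± 0.0903 (adjusted p = 9.61e-05). Again no sample of one group reached the other. Blocked on the replicate number, 4 of the 9 genes fell, the 2 others being *Acaca* and *Scd1*.

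*Acaca*, acetyl-CoA carboxylase, which commits acetyl-CoA to chain assembly, stood at 50.6, 68.2 and 96.3 CPM and 45.9, 55.0 and 69.2 CPM (-0.36 ± 0.136, adjusted p = 0.0772, and 0.0218 with the block). *Scd1*, a desaturase that makes oleate, stood at 143, 185 and 314 CPM and 118, 148 and 205 CPM (-0.45 ± 0.174, adjusted p = 0.0905, and 0.0229 with the block). Both overlapped between groups and were lower in *Dbx2*-NSPCs in 7 of 8 same-numbered comparisons. *Fasn*, fatty acid synthase, stood at 300.1, 443 and 536 CPM and 237, 422 and 519.6 CPM, with -0.22 (adjusted p = 0.425, 95% interval -0.59 to 0.14). Its medians were close and the groups overlapped over most of their range. The elongase *Elovl5* and the desaturases *Scd2*, *Fads1* and *Fads2* had log2 fold changes from -0.30 to -0.19 and did not pass in either fit.

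Fatty acid oxidation genes showed no common direction, with a median log2 fold change of 0.00 and 3 of 7 below 0. *Acadl* (ENSMUSG00000026003), the long-chain acyl-CoA dehydrogenase, fell. It stood at 277, 325 and 395 CPM in *GFP*-NSPCs and at 196, 206 and 248 CPM in *Dbx2*-NSPCs. The groups did not overlap, with a log2 fold change of -0.60 ± 0.0799 (adjusted p = 3.66e-05). *Cpt2*, a mitochondrial carnitine transferase, was the 1 gene of the 41 that rose when blocked on the replicate number (adjusted p = 0.0362), but it did not pass without (0.62 ± 0.268, adjusted p = 0.131). It stood at 3.76, 7.75 and 20.1 CPM and 8.58, 12.2 and 16.7 CPM, and the highest sample of all was replicate 1 of *GFP*-NSPCs. Without that sample, *Cpt2* passed the test with no block (adjusted p = 0.0222).

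The medium-chain dehydrogenase *Acadm* had a log2 fold change of 0.00 (95% interval -0.22 to 0.23), and *Hadha* and *Hadhb*, the subunits of the trifunctional protein, had -0.07 and -0.18. *Acadvl*, the very-long-chain dehydrogenase, had 0.18. It overlaps *Dvl2* on the opposite strand over 2119 bases, including its 3' end, and *Hadha* overlaps *Garem2* over 75 bases. None of these 4 passed the test in any of the 14 alternative settings. *Cpt1a*, the outer membrane carnitine transferase, had 0.35 over all samples (adjusted p = 0.443) and is described with the number sets.

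In the group of efflux, lipoprotein and droplet genes, *Lpl* fell and 3 genes did not pass. *Lpl*, lipoprotein lipase, which frees fatty acids from lipoproteins, was low throughout, at 3.63, 6.82 and 9.77 CPM in *GFP*-NSPCs and at 0, 0.84 and 2.70 CPM in *Dbx2*-NSPCs. The groups did not overlap, and 5 of 8 *Dbx2*-NSPC samples held 3 reads or fewer, 3 of them none. Summed reads were 153 and 24, a depth-scaled ratio of 6.87 (exact 95% interval 4.45 to 11.1, counting error only). The fitted log2 fold change of -2.61 ± 0.403 (adjusted p = 0.000172) depends on the added 0.5 CPM. *Lpl* passed the filter on low values only through the *GFP*-NSPC samples, so its call is no support for a difference. *Abca1*, a cholesterol exporter, had 0.29, and *Apoe* and *Plin2* had -0.32 and 0.05 over all samples.

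**Figure D2:**
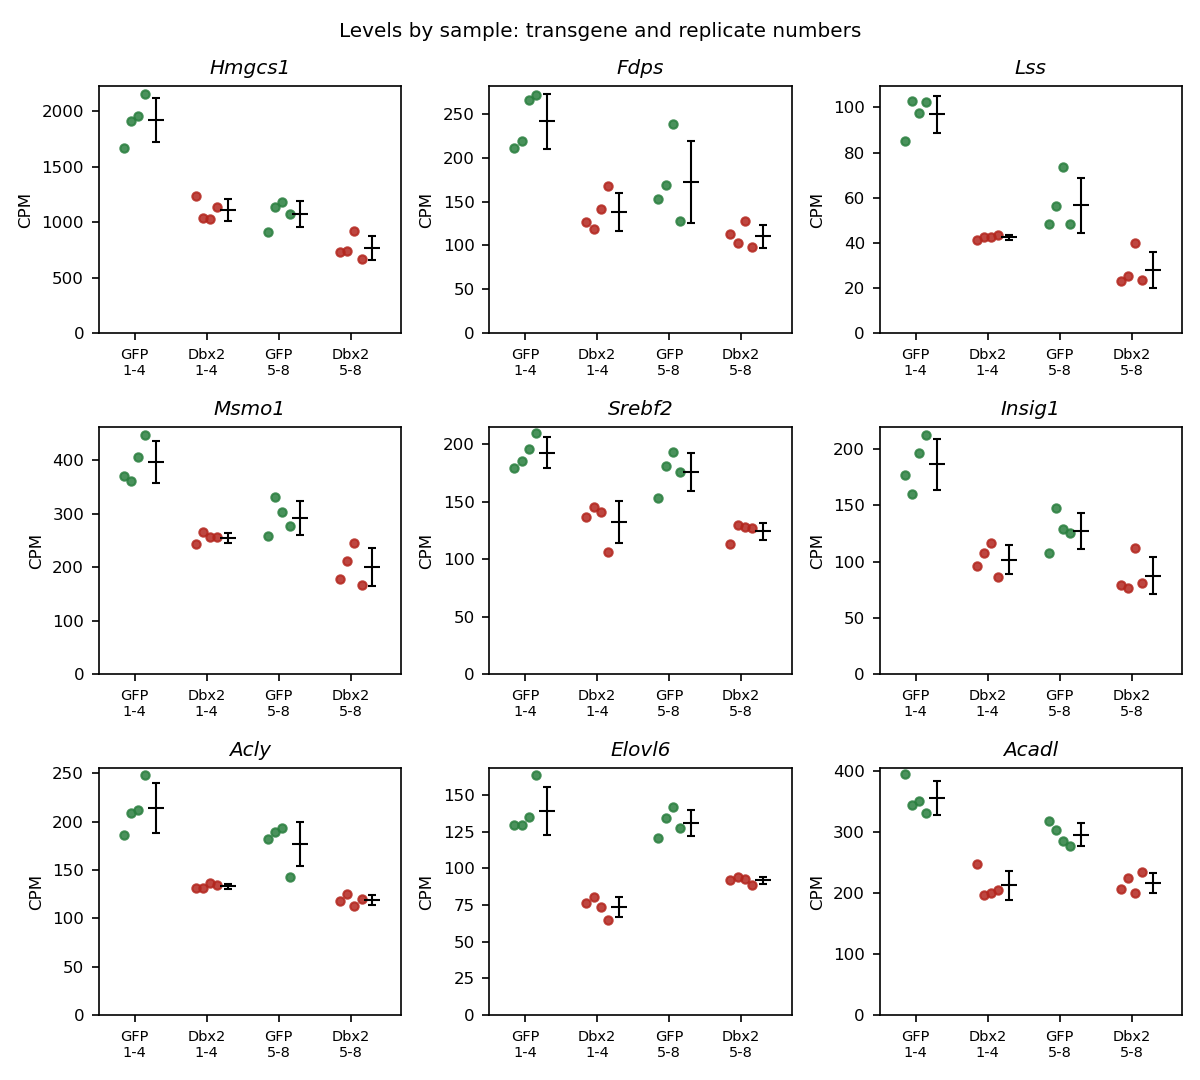
CPM of 9 genes in each sample, with *GFP*-NSPCs in green and *Dbx2*-NSPCs in red, split by replicate numbers 1 to 4 and 5 to 8 (n = 4 each), points in order of number, and bars at the mean ± SD. In all 9 panels the *Dbx2* mean is below the *GFP* mean of the same numbers. For *Hmgcs1*, *Lss*, *Msmo1*, *Insig1* and *Acadl* the *GFP* samples numbered 5 to 8 also sit below those numbered 1 to 4.

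Within numbers 1 to 4, 27 of the 41 genes fell and 1 rose (*Plin2*), against 7.37% and 8.19% of tested genes. Within numbers 5 to 8, 16 fell and 4 rose (*Srebf1*, *Cpt1a*, *Cpt2* and *Apoe*), against 11.7% and 11.5%. A fall in both sets was found for 16 of the 41 genes, 9 of them in sterol synthesis, against 3.1% of tested genes. The median log2 fold change of the 41 genes was -0.58 in numbers 1 to 4 and -0.21 in numbers 5 to 8. For the sterol synthesis genes it was -0.64 and -0.40, and for the fatty acid synthesis genes -0.58 and -0.14. For both groups of genes, the *GFP*-NSPC samples numbered 1 to 4 carried the highest mean level. The mean log2 level of the sterol synthesis genes, relative to all tested genes, was 2.89 ± 0.12 (SD, n = 4) in them and 2.26 ± 0.16 in *GFP* numbers 5 to 8, against 2.21 ± 0.12 and 1.82 ± 0.12 in the *Dbx2* samples of the same sets. For fatty acid synthesis it was 3.24 ± 0.19 and 2.84 ± 0.14 in *GFP*-NSPCs and 2.62 ± 0.09 and 2.67 ± 0.01 in *Dbx2*-NSPCs.

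**Figure D3:**
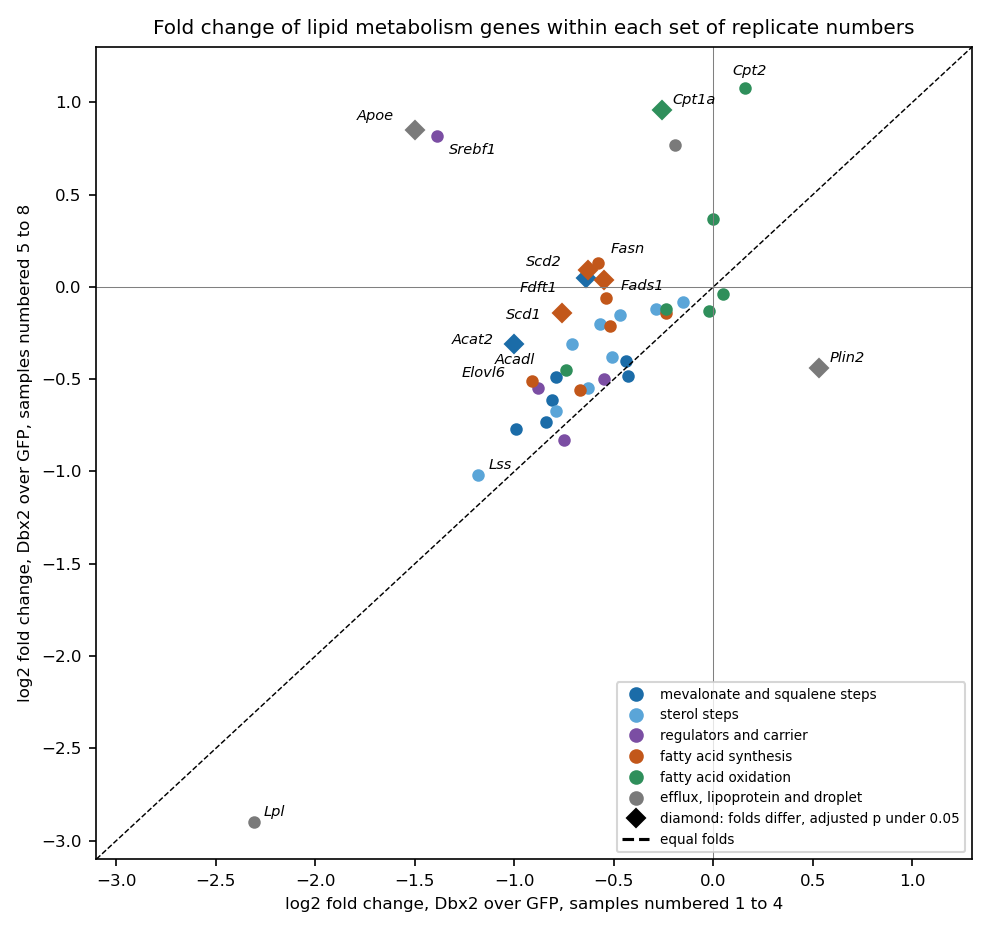
Log2 fold change of the 41 genes in numbers 1 to 4 (x axis) against numbers 5 to 8 (y axis), coloured by role, with diamonds for the 8 genes whose fold differed between the sets (adjusted p under 0.05) and a dashed line at equal folds. Points above the line, 35 of 41, had the more positive fold in numbers 5 to 8, while *Lss* and *Lpl* were low in both.

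The fold change itself differed between the sets for 8 of the 41 genes (interaction term in limma, adjusted p under 0.05), 7 of them with a more positive fold in numbers 5 to 8. Over all tested genes, 4.4% differed in that direction and 5.04% in the other, 9.44% in all. None of these 8 genes passed the comparison over all 16 samples without covariate. They include 2 of the sterol synthesis genes, 3 of fatty acid synthesis, 1 of oxidation, and *Apoe* and *Plin2*. Some cell type markers moved with the sets too. *Dcx*, a neuroblast marker, averaged 4.07 ± 2.23 CPM in the control samples and 0.0825 ± 0.165 CPM in the *Dbx2* samples of numbers 1 to 4. In numbers 5 to 8 it averaged 0.205 ± 0.41 and 4.74 ± 0.838 CPM (adjusted p of the difference 3.26e-07). *Dcx* was at or under 3 reads in 4 samples of each transgene group. It passed the filter on low values only through the samples where it was high, so its p-value is no support for a difference. The neuronal *Rbfox3* went the same way, at 5.55 ± 2.79 and 1.05 ± 0.709 CPM and then 0.88 ± 0.586 and 9.85 ± 4.28 CPM (adjusted p 3.9e-06). *Rbfox3* was at or under 3 reads in 3 *GFP*-NSPC and 2 *Dbx2*-NSPC samples. The folds of the NSPC marker *Nes* (0.03 and -0.65, adjusted p 0.00488) and the astrocyte marker *Aldoc* (0.82 and 2.02, adjusted p 2.67e-06) differed as well. The part of these markers in the lipid gene differences was not tested.

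*Apoe*, the main apolipoprotein made by glia, had the largest difference. In numbers 1 to 4 the control samples were at 2189 ± 701 CPM and the *Dbx2* samples at 799.7 ± 387 CPM (mean ± SD, n = 4), and in numbers 5 to 8 at 216 ± 60.1 and 379 ± 25.8 CPM. It fell in the first set (-1.50 on the log2 scale, adjusted p = 0.00343) and rose in the second (0.85, adjusted p = 0.00128), with no overlap between groups in either. The difference of the folds was 2.36 ± 0.322 (SE, adjusted p = 1.17e-05). *Cpt1a* showed 47.4 ± 7.30 and 39.3 ± 2.14 CPM in numbers 1 to 4, and 16.4 ± 4.94 and 31.4 ± 3.02 CPM in numbers 5 to 8. It rose in the latter set (0.96, adjusted p = 0.00336) and did not pass in the former (-0.26, adjusted p = 0.238), with a difference of 1.22 ± 0.25 (adjusted p = 0.0016). The *Dbx2* means of the 2 sets lay closer together than the *GFP* means in both genes. *Plin2*, a lipid droplet coat protein, went the other way, at 38.2 ± 5.73 and 55.4 ± 8.78 CPM in numbers 1 to 4 and 26.1 ± 4.25 and 19.5 ± 5.59 CPM in numbers 5 to 8. It rose in the first set (0.53, adjusted p = 0.0419) and did not pass in the second (-0.44, adjusted p = 0.137), a difference of -0.96 ± 0.259 (adjusted p = 0.0162).

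Of the 4 desaturase genes, *Scd1*, *Scd2* and *Fads1* fell in numbers 1 to 4, and none of the 4 passed the test in numbers 5 to 8. *Scd2* stood at 901 ± 144 and 582 ± 100.1 CPM in the first set and at 625 ± 52.7 and 663 ± 27.9 CPM in the second. Its log2 fold changes were -0.63 (adjusted p = 0.0109) and 0.09 (adjusted p = 0.44), and they differed by 0.72 ± 0.164 (adjusted p = 0.00423). *Fads1*, which makes long polyunsaturated fatty acids, stood at 297 ± 13.6 and 204 ± 28.1 CPM, and at 159.6 ± 31.3 and 162 ± 9.33 CPM. Its folds of -0.55 (adjusted p = 0.00463) and 0.04 (adjusted p = 0.848) differed by 0.59 ± 0.166 (adjusted p = 0.0225). The difference for *Scd1*, 0.62 ± 0.193 (adjusted p = 0.0412), was the least stable. It passed in 5 of 16 fits that left out 1 sample, and was lost without any of *GFP*-NSPC replicates 2 to 8 or *Dbx2*-NSPC replicate 2, 3, 6 or 7, whereas *Fads1* passed in 13 and the 6 other genes in all 16. *Fads1* was lost without *GFP*-NSPC replicate 4, *GFP*-NSPC replicate 5 or *Dbx2*-NSPC replicate 3, with a highest adjusted p of 0.0562, and for *Scd1* the highest was 0.0985.

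The 2 sterol genes with a set difference were *Acat2* and *Fdft1*. *Acat2* stood at 293 ± 50.9 and 146 ± 20.4 CPM in numbers 1 to 4 and at 116 ± 11.4 and 93.4 ± 12 CPM in numbers 5 to 8. It fell by 1.0 on the log2 scale in the first set (adjusted p = 0.000602) and had -0.31 in the second (adjusted p = 0.0553), a difference of 0.69 ± 0.18 (adjusted p = 0.0136). *Fdft1* stood at 84.6 ± 5.39 and 54.3 ± 4.13 CPM, and at 42.9 ± 7.83 and 43.9 ± 2.5 CPM. It fell in numbers 1 to 4 (-0.64, adjusted p = 0.00208) and did not pass in numbers 5 to 8 (0.05, adjusted p = 0.844), a difference of 0.68 ± 0.177 (adjusted p = 0.0124). *Dbx2* itself had a larger fold in numbers 5 to 8 (1.99) than in numbers 1 to 4 (0.54), and the part of this in the lipid gene differences was not tested.

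**Figure D4:**
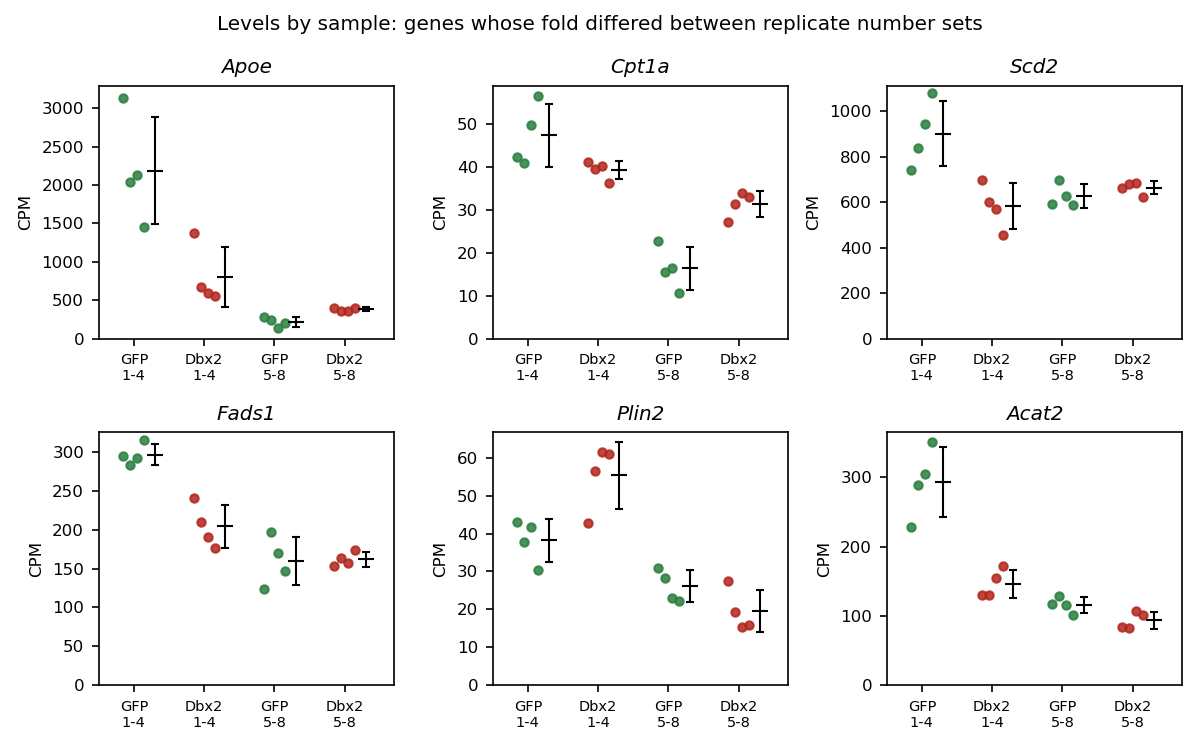
CPM of 6 genes whose fold change differed between the number sets, in each sample, with *GFP*-NSPCs in green, *Dbx2*-NSPCs in red, points in order of number and bars at the mean ± SD (n = 4). *Apoe* falls in numbers 1 to 4 and is higher in *Dbx2*-NSPCs in numbers 5 to 8, *Cpt1a* is higher in *Dbx2*-NSPCs in numbers 5 to 8, and *Plin2* is higher in numbers 1 to 4.

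A wider list of 87 lipid genes, of which 72 passed the filter, was examined beside the 41. Of these 72, 8 rose and 8 fell (7.78% of all tested genes fell and 8.03% rose), and the median log2 fold change was 0.04. With the replicate block 11 rose and 10 fell, against 10.8% and 10.9% of all tested genes. With the number set as covariate 10 rose and 12 fell, against 12% and 12.2%. Those that fell include *Lbr*, *Lrp1*, *Elovl4*, *Acsl3* and *Fabp7*. The lipoprotein receptor gene *Lrp1* fell by 0.56 ± 0.129 (adjusted p = 0.00591) and the elongase *Elovl4* by 0.45 ± 0.118 (adjusted p = 0.0143). *Lbr* passed in 5 of 16 fits that left out 1 sample and was lost (highest adjusted p 0.0768) without any of *GFP*-NSPC replicates 3 to 8 or *Dbx2*-NSPC replicate 1, 2, 3, 5 or 6, and did not pass in edgeR (adjusted p = 0.0584). *Acsl3* passed in 11 and was lost (highest 0.0606) without *GFP*-NSPC replicate 2, 3 or 4 or *Dbx2*-NSPC replicate 1 or 2.

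The 8 that rose were *Me1*, *Lpin1*, *Cpt1c*, *Agpat2*, *Dgat2*, *Eci2*, *Acaa2* and *Soat1*. *Me1*, the malic enzyme that yields NADPH, stood at 71.7, 107 and 142 CPM and 132, 196 and 233 CPM (0.89 ± 0.134, adjusted p = 0.000139). *Lpin1*, a phosphatidate phosphatase, stood at 67.9, 78.8 and 96.9 CPM and 94.7, 134 and 163 CPM (0.68 ± 0.111, adjusted p = 0.000294). Their groups overlapped slightly, and both were higher in *Dbx2*-NSPCs in 8 of 8 same-numbered comparisons. *Dgat2*, which completes triglycerides, stood at 9.12, 10.9 and 14.5 CPM and 13.1, 16.8 and 21.8 CPM (0.61 ± 0.148, adjusted p = 0.00755). *Agpat2*, an acyltransferase, had 9 reads summed over *GFP*-NSPC samples and 43 over *Dbx2*-NSPC samples. It passed the filter on low values through the latter, so its call is no support for a difference. *Eci2* was lost without *Dbx2*-NSPC replicate 5 (adjusted p = 0.0506), *Acaa2* without *GFP*-NSPC replicate 8 or *Dbx2*-NSPC replicate 3 (highest 0.0516), and *Soat1* without *GFP*-NSPC replicate 7 or 8 (highest 0.0509). *Cpt1c*, the brain form of carnitine palmitoyltransferase, stood at 13.4, 28.2 and 47.6 CPM and 57.8, 72.1 and 86.0 CPM. All *Dbx2* samples were above all *GFP* samples (1.41 ± 0.257, adjusted p = 0.000771).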

How the data were processed

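RNA from 16 cultures (8 *GFP*-NSPC and 8 *Dbx2*-NSPC samples, grouped by the transgene label) was sequenced at its 3' ends with the QuantSeq kit, from 100 ng of total RNA in 101 bp single-end reads. According to the methods and processing notes, the authors checked reads with FastQC 0.11.8, removed adapters, poly-A tails and low-quality ends, aligned to GRCm38 with STAR 2.5.0a and used edgeR 3.36. The deposited table holds CPM for 30386 genes, normalized by the authors, with sums of 999485 to 999614 per sample. The counting tool, its strand setting and its treatment of reads shared by paralogs are not given in the sources used here. A CPM value moves with the total, so a gene's change is relative to the other genes of its sample.

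CPM values were whole multiples of 1 read (0.3 to 0.55 CPM) in 99.924 to 100% of cases (tolerance 0.1 of a read plus 0.005 CPM), which gave the depth per sample and counts for edgeR 4.0.16 and DESeq2 1.42.0. Reads carry no molecular identifiers, so floors and intervals cover counting error only. The test was limma 3.58.1 (R 4.3.3), with intensity trend, on log2(CPM + 0.5), for the 12533 genes above 1 CPM in at least 4 samples, 2-sided, Benjamini-Hochberg adjusted, with a threshold of 0.05 and no covariate, because the labels do not name the cell line. A fold change on this scale understates the change of low genes. By the study's methods, the samples were 4 independent experiments for each of 2 pairs of lines, and part of their spread may still be technical. Errors and p-values therefore describe repeat cultures of these lines. How far they hold for other independently derived lines was not tested. The difference between number sets was the interaction term of transgene and set. For *Dbx2*, the exact permutation test over all 12870 splits of 8 against 8 samples gave a 2-sided p of 0.00357. The fits were tested on simulated data that held no difference between the number sets in control samples, so that test does not cover this division of the samples.

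The replicate numbers come from the sample titles. Same-numbered samples deviated together (correlations of 0.152 to 0.303, mean 0.226), but other samples of the same set did nearly as much (mean 0.199). Most of this is thus shared by the whole set. For deviations within sets the same-numbered mean was 0.04, and 1 of 8 pairs exceeded 0.1. Over all samples, 1 of 8 pairs correlated best with its own number. No label says that a number pairs samples, so the replicate block is an alternative fit only, beside the number set as covariate. The alternatives were 2 pseudocounts (0.1 and 2), no filter, a mean of at least 10 CPM, 2 scalings, no trend, the replicate block, the set as covariate, each set alone, edgeR with and without the set, DESeq2, and leaving out each sample.

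The 41 genes, the wider list, the markers, the motifs and the number sets were chosen with earlier results of these data known. All 41 genes are accounted for. Values by sample are given where a gene passed without covariate, with the set as covariate or in the interaction. In the wider list, the genes described are those of the 10 with the smallest adjusted p, except that some are not reported here. Promoters and gene overlaps come from RefSeq and GENCODE M21, both on GRCm38.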

Additional observations from a re-analysis of the deposited data

Results flagged for a closer look

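The transgene effect differed between the replicate number sets for 8 genes, by a test of the difference itself. As numbers 5 to 8 less numbers 1 to 4 on the log2 scale, the differences were 2.36 for *Apoe*, 1.22 for *Cpt1a*, 0.72 for *Scd2*, 0.69 for *Acat2*, 0.68 for *Fdft1*, 0.62 for *Scd1*, 0.59 for *Fads1* and -0.96 for *Plin2*.

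A single sample lay far from the other 7 of its group in 3 of 82 combinations of gene and group, where chance gives about 1 in 20. *Apoe* stood at 1376 CPM in *Dbx2*-NSPC replicate 1, *Acadvl* at 81.8 CPM in *GFP*-NSPC replicate 1, and *Fads2* at 28.0 CPM in *GFP*-NSPC replicate 7.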

How the results depend on the processing

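Of the 18 genes called, 13 passed in each of the 14 alternative settings that tested them, and 14 in each fit that left out 1 sample. With the replicate block, the number of genes that rose went from 0 to 1, of fatty acid synthesis genes called from 2 to 4, and of oxidation genes from 1 to 2, and it changed no call among the 41 genes beyond the 6 named in the report. In the wider list the calls went from 16 to 21, while those over all tested genes went from 15.8% to 21.7%. Among the markers *Sox2* and *Foxj1* passed. The set as covariate gave 1, 4 and 2 as well, in limma and in edgeR, and 3034 genes over the whole table in limma, against 1982. Numbers 1 to 4 alone gave 1 gene that rose and 6 of fatty acid synthesis, and numbers 5 to 8 alone 4 that rose and 3 of oxidation. Without trend, 5 genes differed between sets, against 8. The sign turned in numbers 5 to 8 alone for *Fdft1* (0.05), *Scd2* (0.09), *Fads1* (0.04), *Fasn* (0.13), *Srebf1* (0.82), *Acadm* (-0.04), *Apoe* (0.85) and *Plin2* (-0.44), and in numbers 1 to 4 alone for *Cpt1a* (-0.26), *Abca1* (-0.19) and *Acadvl* (0.00). That of *Srebf1* also turned in edgeR and DESeq2 (0.24 each) and in edgeR with the set (0.12). The *Dbx2* fold in numbers 1 to 4 alone was 0.54 and did not pass. The cause of these changes was not tested.

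Leaving out 1 sample gave 7 to 14 sterol synthesis genes called, against 11, with 7 without *GFP*-NSPC replicate 2, 3 or 4 or *Dbx2*-NSPC replicate 5, 6 or 8. It gave 0 to 1 genes that rose and 1 to 2 oxidation genes, the higher counts without *GFP*-NSPC replicate 1. The log2 fold change ran from -0.09 to 0.20 for *Plin2*, from -0.05 to 0.04 for *Acadm*, and from -0.50 to 0.29 for *Srebf1*, which turned only without *Dbx2*-NSPC replicate 4. Depth limits *Lpl*, *Srebf1* and *Agpat2*, which had samples at or under 3 reads. The markers *Gfap*, *Flt1*, *Ccdc153*, *Dcx* and *Rbfox3* had such samples too.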

Other observations

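In the wider list of 87 lipid genes, the fold change differed between the number sets for 7 of the 72 tested, against 9.44% of all tested genes. *Mgll*, monoglyceride lipase, differed most, at 139 ± 29.0 and 60.3 ± 14.6 CPM in *GFP*-NSPCs and *Dbx2*-NSPCs numbered 1 to 4 and at 43.1 ± 6.36 and 75.4 ± 11.7 CPM in those numbered 5 to 8 (difference of log2 folds 2.01 ± 0.228, adjusted p = 8.23e-07). *Lipe*, hormone-sensitive lipase, had folds of -0.55 and 0.58 (difference adjusted p = 0.0427). *Lipe* held in 5 of 16 fits that left out 1 sample and was lost (highest adjusted p 0.0973) without *GFP*-NSPC replicate 1, 2, 3, 4, 7 or 8 or *Dbx2*-NSPC replicate 3, 4, 5, 7 or 8. The acyl-CoA makers *Acss2* (-1.41 and -0.09, adjusted p = 0.0175) and *Acsl3* (-0.82 and -0.02, adjusted p = 0.000336) were lower chiefly in numbers 1 to 4. *Hilpda*, a lipid droplet protein that inhibits lipolysis, had 0.22 and -0.68 (adjusted p = 0.00567), the same signs as the droplet gene *Plin2*. *Cpt1c* had 2.04 and 0.78, above 0 in both sets (adjusted p of the difference 0.000318).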
